A study of Trichoderma reesei with 4 samples.

Results

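A set of 46 genes of Trichoderma reesei reached its highest level at 9 h of sporulation, the last of the times sampled. The set was chosen by the deposited mean log2 levels. A gene was taken when its 9 h mean exceeded the highest of its 0 h, 3 h and 6 h means by at least 0.8 and its 6 h mean by at least 1, which is 2-fold. Of 9126 array features 47 met both thresholds, and 1 of these was left out by the rule. The 9 h level and its differences from earlier times are therefore a description of the choice and carry no test here. All 46 genes are listed in the RefSeq gene table of T. reesei QM6a, but the only symbol among them is ooc1, for TRIRE2_50323. The other 45 are named by their array identifiers, and no function is given for them.

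The strain was QM9414, an early cellulase-producing mutant that the labels also describe as a low producer. It was grown on cellophane over malt extract agar. Cultures were taken during sporulation at 3, 6 and 9 h, and mycelium at 0 h served as the control. Each time stands for 2 biological replicas, of which the mean and SD were deposited. No mycelium was sampled at 3, 6 or 9 h, so time in culture and sporulation cannot be told apart, and neither can a change per cell from a change in the mix of hyphae and spores.

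Conidiation is the formation of asexual spores on branched aerial hyphae. Flask-shaped cells called phialides at the branch tips bud off the conidia, which in Trichoderma become green as they mature. In Aspergillus nidulans, where this is best known, regulators act in sequence: brlA starts the development of the conidiophore, abaA acts in the phialides and wetA in the maturing spore. Genes of spore maturation encode, among others, enzymes of pigment synthesis and of the spore wall, and are expressed late. The labels name LXR1, a D-mannitol dehydrogenase, as the enzyme by which conidiation was followed.

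Markers of conidiation were already high before the last step. The gene of that enzyme, lxr1, had levels of 11.96 ± 0.2, 13.33 ± 0.12, 13.94 ± 0.14 and 13.89 ± 0.12 at 0, 3, 6 and 9 h (log2 expression, mean ± SD, n = 2, as for all levels below). The hydrophobin gene hfb2, for a small protein that coats hyphae and spores, was at 14.34 ± 0.0024 at 9 h and at 13.82 ± 0.1 at 6 h. Levels of hfb3, another hydrophobin gene, were 14.0 ± 0.091 at 9 h and 13.45 ± 0.18 at 6 h. At 3 h lxr1, hfb2 and hfb3 were already higher than in mycelium, by 1.37, 3.1 and 4.52 log2 units (limma adjusted p of 1.40e-04, 1.47e-05 and 3.73e-06). None of these marker genes is in the set, and their 9 h means lay between 0.14 below and 0.08 above their highest earlier mean (-0.14 for hfb3 and 0.08 for hfb2). Median levels over all features were between 11.53 and 11.56 at the 4 times.

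The late genes started low. At 0 h their median level was 7.19, and 42 of the 46 lay in the lowest 25% of all features. The rule requires 9 h to exceed 0 h and so favours genes low at 0 h. The low start is therefore read as a description of the choice. The later medians were 8.84, 9.23 and 11.12 at 3, 6 and 9 h. By 9 h 18 of them were above the median of all features and 7 were in the top 25%, while 16 were still in the lowest 25%. Levels at 9 h ranged between 6.85, for TRIRE2_111716, and 14.65, for TRIRE2_76230. Over the highest earlier mean the rise was between 1.8-fold and 11.7-fold, with a median of 2.97-fold. It was at least 2-fold in 42 genes and at least 4-fold in 15. In TRIRE2_111499 the 9 h mean was 0.92 above the 0 h mean, and in the other 45 genes 9 h was at least 2-fold above 0 h.

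**Figure D1:**
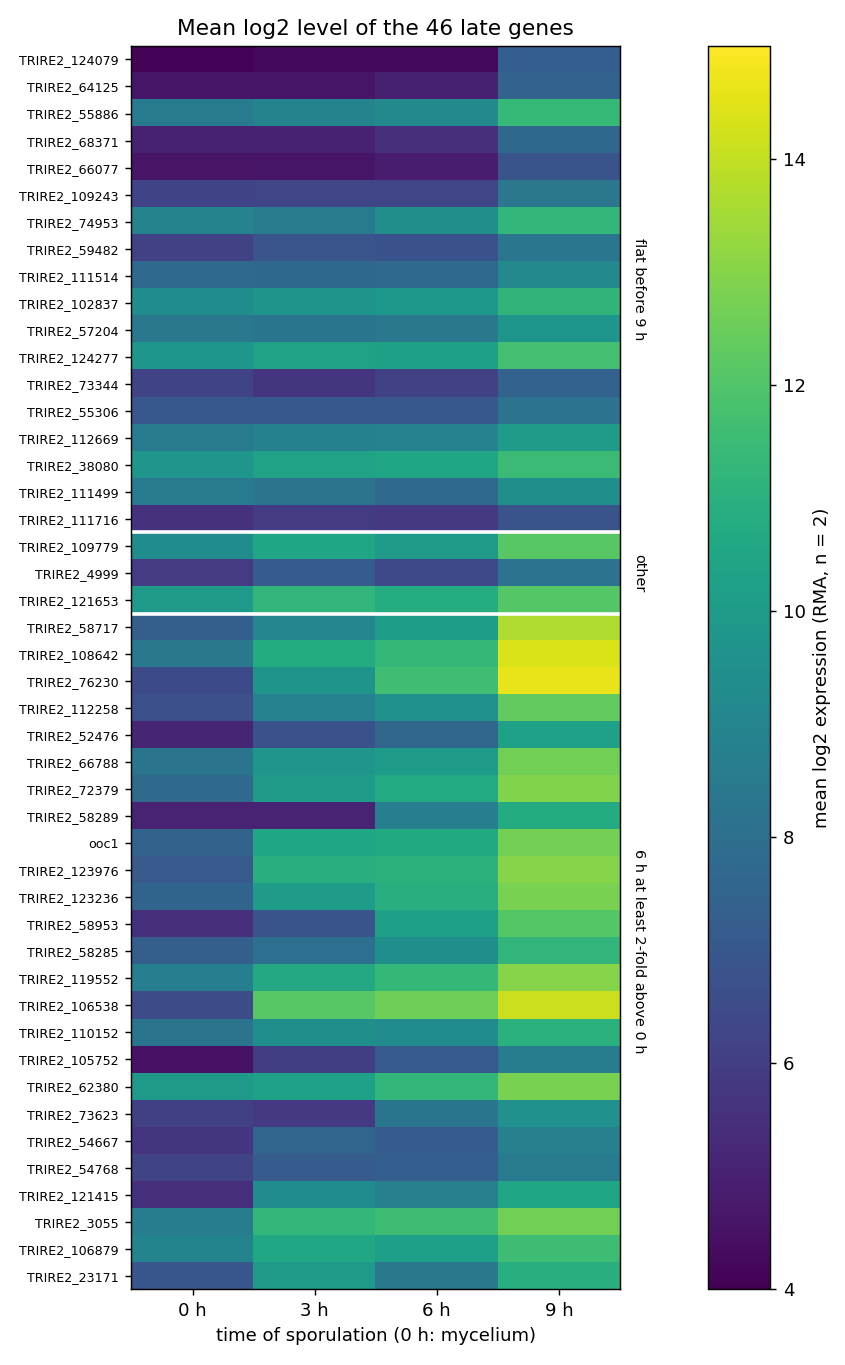
Mean log2 expression of the 46 late genes (rows) at 0, 3, 6 and 9 h (columns), from dark at 4 to yellow at 15, n = 2 per time. From the top, 18 genes were flat before 9 h, 3 were raised at 3 h and less so at 6 h, and 25 were at least 2-fold above 0 h by 6 h. The brightest cells at 9 h, TRIRE2_76230, TRIRE2_108642 and TRIRE2_106538, are in the lower group.

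The gene with the largest rise was TRIRE2_58717. Its levels were 7.34 ± 0.0004, 9.06 ± 0.15, 10.16 ± 0.14 and 13.71 ± 0.11 at the 4 times, which puts 9 h 11.7-fold above 6 h and 82.5-fold above 0 h. Its next neighbour in the gene order, TRIRE2_76230, was the most highly expressed of the set at 9 h. That gene had levels of 6.47 ± 0.25, 9.69 ± 0.061, 11.62 ± 0.12 and 14.65 ± 0.51 at 0, 3, 6 and 9 h, 289-fold higher at 9 h than at 0 h. Its 9 h mean was exceeded by 237 of the 9126 features. Every step of both genes was upward, and 9 h stood apart from the earlier times in each.

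TRIRE2_108642 followed a similar course at high level, with 8.42 ± 0.37, 10.76 ± 0.48, 11.33 ± 0.0009 and 14.4 ± 0.21 at 0, 3, 6 and 9 h. Its last step was 8.39-fold, and its early replicas were the more scattered. TRIRE2_112258 had the narrowest replica spread of the 10 genes with the largest rise, at 6.69 ± 0.023, 8.87 ± 0.062, 9.57 ± 0.075 and 12.36 ± 0.091 at these times. TRIRE2_66788 had 8.21 ± 0.19, 9.75 ± 0.35, 10.08 ± 0.068 and 12.67 ± 0.19. In the last 2 genes the gain between 6 and 9 h, of 2.79 and 2.59 log2 units, was larger than any earlier step.

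The gene ooc1 had levels of 7.48 ± 0.28, 10.49 ± 0.16, 10.7 ± 0.31 and 12.71 ± 0.12 at 0, 3, 6 and 9 h. Its steps before 3 h and after 6 h were 3.01 and 2.0 log2 units, with 0.22 between 3 and 6 h. TRIRE2_123976 had the same form, at 7.05 ± 0.39, 10.9 ± 0.099, 11.06 ± 0.14 and 13.02 ± 0.078. TRIRE2_106538 was the extreme of this kind, at 6.54 ± 0.14, 12.13 ± 0.22, 12.56 ± 0.23 and 14.13 ± 0.2. Its last step of 1.57 was 20.7% of its whole log2 rise between 0 and 9 h, the lowest share in the set, and the median share was 58.0%. TRIRE2_119552, also among the 6 highest at 9 h, had levels of 8.77 ± 0.67, 10.64 ± 0.41, 11.34 ± 0.27 and 13.0 ± 0.22, with its replicas widest apart in mycelium.

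**Figure D2:**
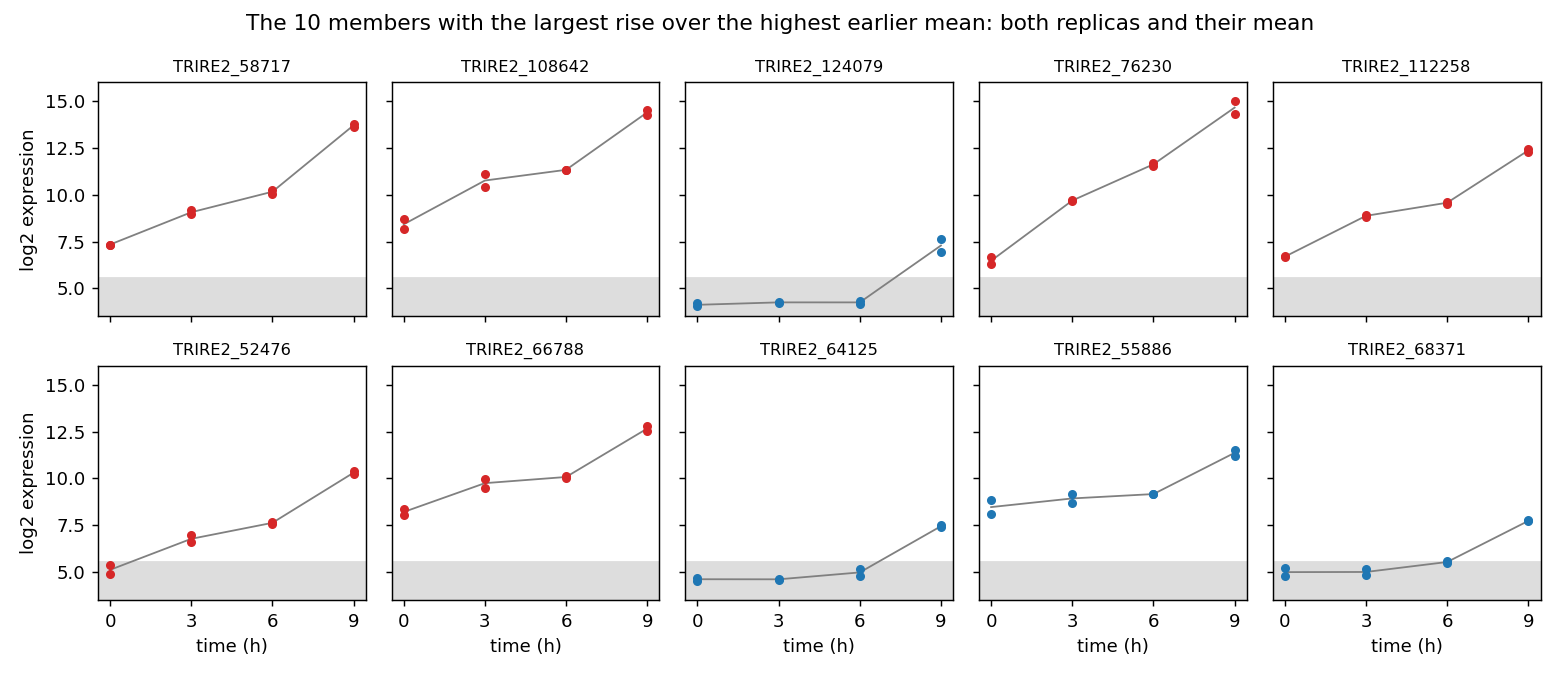
Log2 expression (vertical axis) against time in hours (horizontal axis) for the 10 genes with the largest rise over the highest earlier mean. Points are the 2 replica values that follow from each mean and SD, lines join the means, red marks genes raised at least 2-fold by 6 h, blue marks genes flat before 9 h, and the grey band reaches up to 5.53, the highest mean of the MAT1-1 features. In each gene both 9 h points lie above all earlier points.

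Both replicas of 9 h lay above all replicas of the other times in 46 of the 46 genes, against 12.4% of all features. The rule used these means, so the count is read as a description only. Spread was wider than usual for the array. At 9 h the median SD of the late genes was 0.136, against 0.0821 over all features and 0.0897 over features below the median level. At 3 h it was 0.183, against 0.0992 over all features and 0.132 over features below the median level. The widest spreads in the set were those of TRIRE2_111499, with an SD of 0.99 at 3 h, and TRIRE2_109243, with 0.88 at 3 h and 0.86 at 0 h. These and TRIRE2_73344 were the 3 of 46 late genes whose p-value over the 4 times in the authors' deposited table was not under 0.05. That table has 39.0% of all features under 0.05.

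Some of the late genes began at background level. As a gauge of background, the array has 3 features for the MAT1-1 mating-type locus, while the QM6a lineage has the other mating type. Their means lay between 4.0 and 5.53 at all times. At 0 h 8 of the late genes were at or below 5.53, at 3 h 5 of them, at 6 h 3 and at 9 h 0. The 3 at 6 h were TRIRE2_124079, TRIRE2_64125 and TRIRE2_66077. Fold changes against such values rest on background and their sizes are not exact.

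TRIRE2_124079 was the gene with the largest rise among those at background until 6 h. It was listed at 4.12 ± 0.11, 4.25 ± 0.047 and 4.25 ± 0.12 at 0, 3 and 6 h and at 7.29 ± 0.5 at 9 h. TRIRE2_64125 had 4.62 ± 0.098, 4.62 ± 0.044, 4.99 ± 0.29 and 7.45 ± 0.072 at these times, and TRIRE2_66077 had 4.56 ± 0.14, 4.63 ± 0.052, 4.82 ± 0.26 and 6.86 ± 0.33. TRIRE2_68371 was at 5.0 ± 0.28, 5.01 ± 0.22 and 5.54 ± 0.041 before it reached 7.74 ± 0.039. Even at 9 h these 4 genes were among the lower features of the array, between the percentiles 10.4 and 13.8 of all features.

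By their course before 9 h the late genes were sorted with a fixed cut at 1 log2 unit. In 18 genes the 0, 3 and 6 h means lay within 1 log2 unit of each other. These flat genes had median levels of 7.36, 7.35, 7.38 and 8.76 at 0, 3, 6 and 9 h, and their 9 h means reached at most 11.71, in TRIRE2_124277. In 25 genes the 6 h mean was at least 2-fold above 0 h, and their median levels were 7.05, 9.69, 10.16 and 12.36. The remaining 3 genes, TRIRE2_109779, TRIRE2_4999 and TRIRE2_121653, had been raised at 3 h and were less than 2-fold above 0 h at 6 h. Some genes lie close to the cut. In TRIRE2_74953, a flat gene, 6 h was 0.94 above 3 h. In TRIRE2_110152, one of the 25, 6 h was 1.06 above 0 h. The sizes of these groups were not set beside other features. No gene of the set was 2-fold lower at 3 or 6 h than at 0 h. The rule requires 9 h to exceed 0 h and so disfavours such genes. By an adjusted p under 0.05 and 2-fold (limma), 4.8% of all features were lower at 3 h than at 0 h. The share was 0.354% of the 848 other features with 9 h at least 0.8 above 0 h, so the count is no result about the set.

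Among the flat genes, TRIRE2_55886 had the highest rise from a level above background. It was at 8.47 ± 0.55, 8.94 ± 0.32 and 9.17 ± 0.026 at 0, 3 and 6 h and at 11.37 ± 0.22 at 9 h, 4.6-fold above 6 h. TRIRE2_74953 was at 11.3 ± 0.22 at 9 h, after 8.91 ± 0.077, 8.47 ± 0.36 and 9.42 ± 0.22 at the earlier times. TRIRE2_55306 had the least change among the 3 earlier means, at 6.97 ± 0.0028, 7.03 ± 0.26 and 6.99 ± 0.18, and reached 8.21 ± 0.31 at 9 h. In that gene 98.2% of the log2 rise fell in the last step.

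The comparison of 3 h with 0 h asks whether genes that peak at 9 h already differed from mycelium at the first time sampled. No threshold of the rule is set on this difference, but the rule requires 9 h to exceed 0 h and so favours genes that are low at 0 h. The comparison is therefore not free of the choice. At 3 h 23 of the 46 late genes were higher than in mycelium and 0 were lower. A call needed an adjusted p under 0.05 together with a 2-fold difference. Over all features 6.77% were higher and 4.8% lower. The nearer comparison is with the 848 other features whose 9 h mean was likewise at least 0.8 above the 0 h mean. Of these 415 were higher at 3 h, or 48.9%, and 3 were lower, or 0.354%. The median log2 difference was 1.05 in the late genes and 0.98 in those 848 features. The share of late genes higher at 3 h was thus close to that of other genes that end above mycelium, and is no result about the late genes as a set. This comparison was added after seeing the data. The p-values come from limma, adjusted by Benjamini-Hochberg over all 9126 features, and they measure the spread between 2 replicas per time. The members were chosen with such results known, so no p is given for the set.

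By their definition the 18 flat genes could not pass 2-fold at 3 h. The 23 genes that rose at 3 h were 20 of the 25 that were raised at 6 h, and the 3 of the small group. The largest rise at 3 h was that of TRIRE2_106538, by 5.59 ± 0.17 log2 units (SE, adjusted p = 2.81e-07). TRIRE2_123976 followed at 3.85 ± 0.18 (adjusted p = 2.37e-06) and TRIRE2_121415 at 3.81 ± 0.12 (adjusted p = 4.30e-07). The gene ooc1 rose 8.03-fold (adjusted p = 1.16e-05). TRIRE2_121415 then stood at 8.77 ± 0.23 at 6 h, against 9.35 ± 0.073 at 3 h, before it reached 10.47 ± 0.071 at 9 h.

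The lowest differences at 3 h were -0.56 in TRIRE2_73344 (adjusted p = 0.1), -0.43 in TRIRE2_74953 (adjusted p = 0.103) and -0.34 in TRIRE2_111499 (adjusted p = 0.58), and these did not pass the test. In all, 38 of the 46 differences were positive and 8 negative. TRIRE2_54768 ended just short of the fold threshold, at 0.98 (adjusted p = 2.65e-04), and passed it with each time centred on its median, at 1.01.

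**Figure D3:**
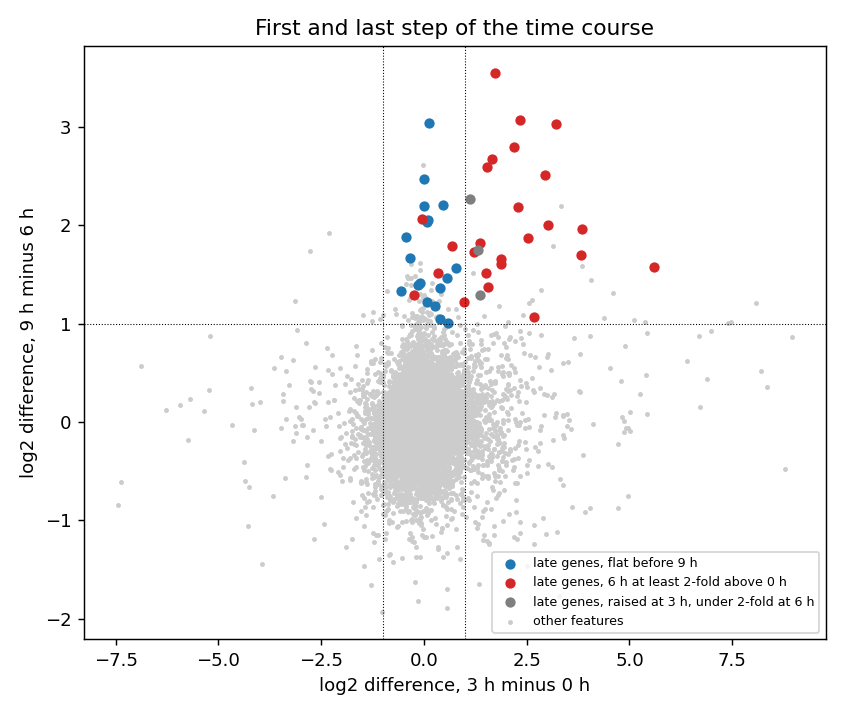
Log2 difference of 9 h minus 6 h (vertical axis) against that of 3 h minus 0 h (horizontal axis), 1 point per array feature. Coloured points are the late genes, by their course before 9 h, and grey dots are the other features. Dotted lines mark 2-fold, and the late genes lie above the horizontal one by the rule. Of the late genes 23 passed the test to the right of 2-fold at 3 h, and none lies left of the line at -1.

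Between 3 and 6 h the set as a whole moved little, with a median log2 difference of 0.2. The 6 h mean was below the 3 h mean in 15 genes and at least 2-fold above it in 7. TRIRE2_23171 was the single gene at least 2-fold lower at 6 h than at 3 h. Its levels were 6.95 ± 0.5, 9.89 ± 0.18, 8.4 ± 0.28 and 10.91 ± 0.033 at 0, 3, 6 and 9 h, so it was high at 3 h and again at 9 h. It is also the longest gene model of the RefSeq table, at 69518 bp, where the median over all 9116 genes is 1503.5 bp and that of the late genes 1495.5 bp. Gene models over 5000 bp made up 4 of the 46 late genes and 2.41% of all genes. The others are TRIRE2_58285, TRIRE2_59482 and TRIRE2_55306.

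The largest step fell between 6 and 9 h in 29 genes, between 0 and 3 h in 14 and between 3 and 6 h in 3. Those 3 were TRIRE2_58289, TRIRE2_58953 and TRIRE2_73623. The rule requires a last step of at least 1 log2 unit, which in the 18 flat genes exceeds any earlier step by definition. The counts are therefore a description only. TRIRE2_58289 was at background at 0 and 3 h, with 5.08 ± 0.09 and 5.04 ± 0.1, and at 8.71 ± 0.4 and 10.77 ± 0.13 at 6 and 9 h. TRIRE2_58953 had 5.51 ± 0.13, 6.87 ± 0.034, 10.27 ± 0.057 and 12.08 ± 0.21, and TRIRE2_73623 had 6.07 ± 0.19, 5.84 ± 0.29, 8.26 ± 0.035 and 9.55 ± 0.0007. In all 3 the 6 h level was far above that at 3 h, and 9 h was higher again.

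Some genes of the set were neighbours. In the gene order of the RefSeq assembly v2.0, 10 of the 46 late genes, or 21.7%, had another late gene within 3 places, where 2.65% of the other genes had a late gene that near. Right next to another late gene were 8, a count with no share of other genes beside it. The difference between the shares within 3 places was not tested, and paralogs were not analysed. Position played no part in the rule. The array's build is not stated, so the table was used for gene order only, and scaffolds were read from the points where its start positions begin again. The 10 genes form 4 runs. The first 2 runs lie on the same scaffold with 29 genes between them, and the scaffold holds 7 of the late genes among its 477 genes.

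The first run is TRIRE2_58285, TRIRE2_58289 and, with 1 gene between, TRIRE2_58953. Their last steps were alike, at 1.79, 2.06 and 1.81 log2 units, but their starts differed. TRIRE2_58285, a gene of 12156 bp, was at 7.34 ± 0.55, 8.01 ± 0.2, 9.47 ± 0.078 and 11.26 ± 0.13 at the 4 times. At 3 h 1 of these genes, TRIRE2_58953, was higher than in mycelium, by 1.36 ± 0.12 log2 units (SE, limma adjusted p = 9.24e-05), from a level at background at 0 h. The gene that lies between them, TRIRE2_76204, was at 6.36 ± 0.23, 7.7 ± 0.38, 8.56 ± 0.13 and 9.18 ± 0.2, with its largest step before 3 h. Its difference between 9 and 6 h was 0.62 and did not pass the test (limma adjusted p = 0.0757). Just outside the run, 2 places before it, TRIRE2_105224 went the opposite way and fell by 1.93 log2 units between these times, to 6.52 ± 0.44 at 9 h, against 8.45 ± 0.066 at 6 h (limma adjusted p = 0.00141).

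The second run is TRIRE2_3055 and, with 2 genes between, the pair TRIRE2_58717 and TRIRE2_76230 described above. TRIRE2_3055 was at 8.61 ± 0.4, 11.29 ± 0.13, 11.57 ± 0.098 and 12.64 ± 0.044, with most of its rise before 3 h. The gene right beside it, TRIRE2_58639, was 0.79 higher at 9 h than at 6 h, under 2-fold (limma adjusted p = 0.0112). The next, TRIRE2_105269, was at 11.55 ± 0.0405 at 9 h and at 11.55 ± 0.0845 at 6 h.

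The third run is TRIRE2_66077 and ooc1, side by side. TRIRE2_66077 was at background until 6 h, while ooc1 was 8.03-fold above mycelium at 3 h, and their last steps were 2.03 and 2.0 log2 units. The difference between these neighbours at 3 h was not tested. Beside TRIRE2_66077, the gene TRIRE2_122975 was 0.85 higher at 9 h than at 6 h (limma adjusted p = 0.0303), under 2-fold. The fourth run is TRIRE2_52476 and TRIRE2_124079. TRIRE2_52476 was at 5.12 ± 0.33, 6.78 ± 0.26, 7.63 ± 0.076 and 10.31 ± 0.11 at the 4 times. Its 3 h level was 1.66 ± 0.18 log2 units above 0 h (SE, limma adjusted p = 2.25e-04), and that of TRIRE2_124079 was 0.13 above (limma adjusted p = 0.659). Their last steps were 2.68 and 3.04, and both were at background at 0 h.

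**Figure D4:**
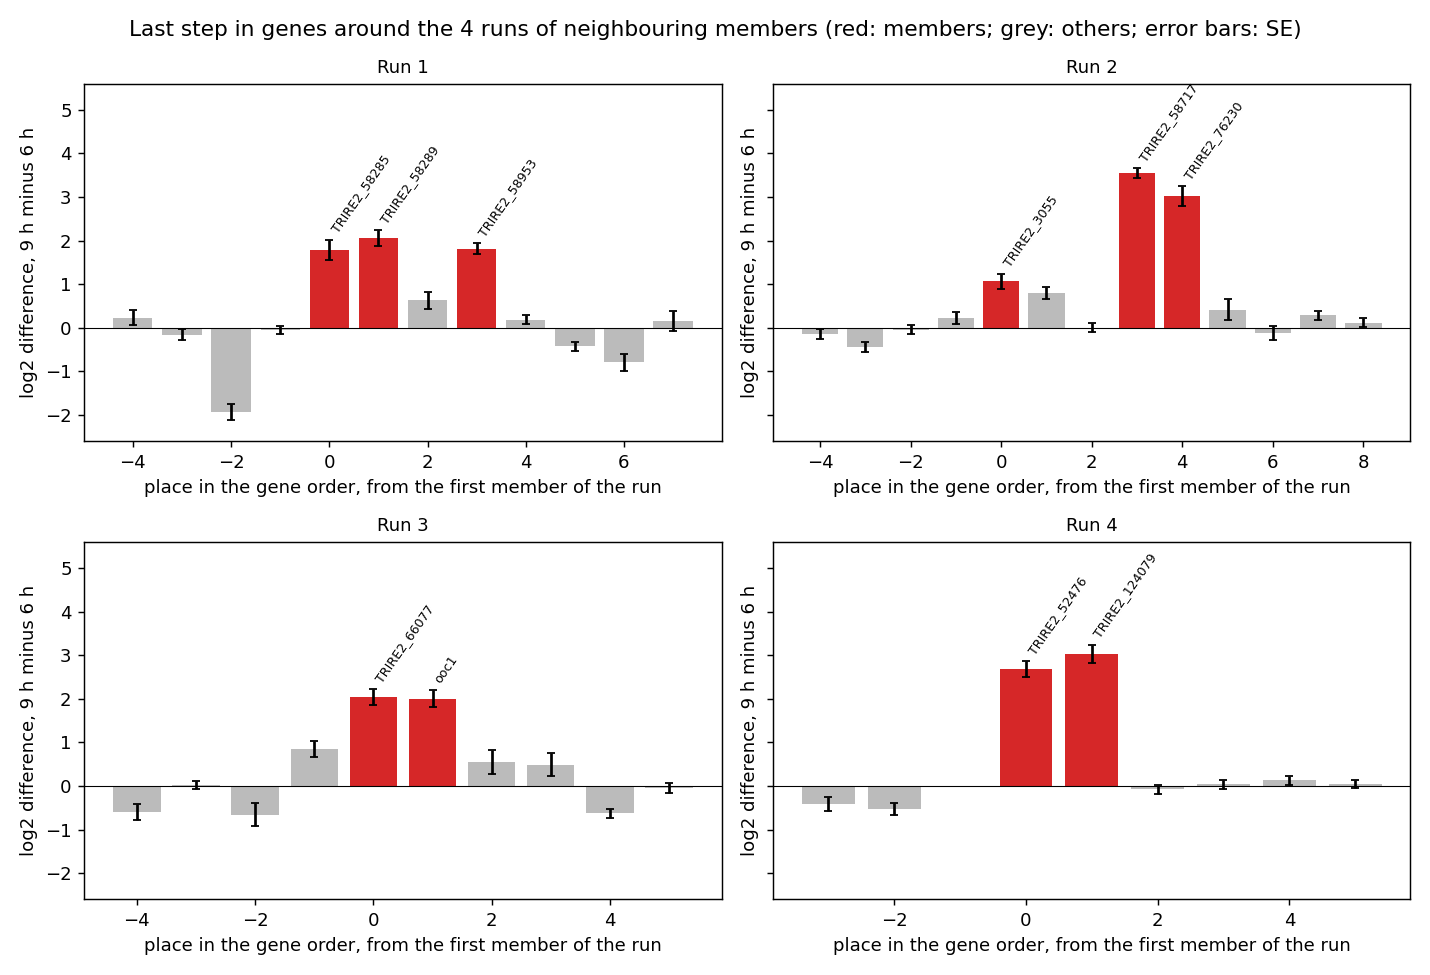
Log2 difference of 9 h minus 6 h, with its SE, for genes in the order of the assembly around each of the 4 runs. The horizontal axis counts places from the first late gene of the run, red bars are late genes and grey bars other genes, and places with no bar are not shown. The red bars lie between 1.07 and 3.55, and no grey bar exceeds 0.85.

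Other genes around the late genes were set beside all 9080 features outside the set, since the neighbours hold no late gene either. Of 239 features within 3 places of a late gene, 2 were higher at 9 h than at 6 h, or 0.837%, and 4 were lower, or 1.67%. Over the features outside the set 0.617% were higher and 0.815% lower. By the adjusted p alone 26 neighbours were higher, or 10.9%, against 4.85%, and 30 were lower, or 12.6%, against 8.02%. The difference between these shares was not tested. The 2 that rose were TRIRE2_76633, at 1.04 (limma adjusted p = 0.00279), and TRIRE2_111517, at 1.09 (limma adjusted p = 0.0452). Among those that fell, TRIRE2_106537 lies right beside TRIRE2_106538, one of the 6 late genes with the highest level at 9 h. It was at 9.0 ± 0.04 at 9 h, against 10.21 ± 0.21 at 6 h, a fall by 1.21 (limma adjusted p = 0.00453). All 46 late genes passed this comparison, as the rule all but requires, and they are 46 of the 102 features that were higher at 9 h, which are 1.12% of all features. Lower at 9 h were 0.811% of all features.

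A symbol belongs to 1 of the 46 late genes and to 235 of the 9126 features, so lists by symbol reach few genes. Of 14 genes with symbols of cellulases and accessory proteins, 0 are late genes. Of these 14, 4 were higher at 9 h than at 6 h, as were 1.12% of all features. Each of the 14 had a higher mean at an earlier time than at 9 h, the nearest to an exception being cel5b, with 9 h at -0.21 against its highest earlier mean. The 3 hemicellulase genes, 20 genes of chitin degradation, 42 ribosomal protein genes, 3 hydrophobin genes, 4 light-response genes and 4 regulators also hold 0 late genes. Together the lists hold 90 genes, and the late genes are only 46 of all 9126 features. At so low a share, 0 late genes among 90 is no result about these lists. Over these lists the highest value of 9 h minus the highest earlier mean was 0.29, in phr1, a photolyase gene.

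At the edge of the rule the values run on without a gap. The 2 genes just inside were TRIRE2_38080, with a last step of 1.0, and TRIRE2_111716, with 1.05. Just outside were TRIRE2_60751, with 0.97, and TRIRE2_66534, with 0.96. TRIRE2_60751 was at 7.86 ± 0.32 at 9 h and 6.89 ± 0.51 at 6 h, a spread that makes its side of the threshold uncertain. The same holds for TRIRE2_38080, at 11.48 ± 0.13 at 9 h and 10.48 ± 0.24 at 6 h, which passed by 0.0021.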

How the data were processed

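Cy3-labelled total RNA was measured on 1-colour NimbleGen arrays, per the labels. The authors deposited log2 expression values made with RMA, per the submitters' processing notes and the file headers. Its version and the array's genome build are not given in the sources used here. Per the file headers, the deposited table holds a mean and an SD (unit other: SD of log2 values) for each time and a p-value. A second deposited table held the same means (largest difference 0). An analysis of variance from means and SDs of 2 replicas, with Benjamini-Hochberg adjustment, came within 1% of the authors' p-value for 98.78% of features, so SDs were taken as those of 2 replicas. RMA equalises the arrays, so changes in total RNA cannot be seen.

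From means, SDs and 2 replicas, limma 3.58.1 (R 4.3.3) gave moderated tests with all 4 times in 1 fit (4 residual and 3.82 prior degrees of freedom), adjusted over 9126 features. Calls need an adjusted p under 0.05 and 2-fold. The computation was tested on simulated data. Replica values are the mean ± SD/√2. The number of arrays limits the precision. Named genes are those with a symbol, the 10 largest rises, the 6 highest levels, the extremes at 3 h, the edge of the rule and runs of neighbours. Some others illustrate the groups and were chosen after their values were seen, as was the comparison of neighbours. The members and lists were chosen with earlier results of these data known. Of 9122 TRIRE2 identifiers 9094 were in the RefSeq table. Protein and promoter sequences and paralogs were not analysed here. Alternatives were other scalings, filters, priors, thresholds and replica values.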

Additional observations from a re-analysis of the deposited data

How the results depend on the processing

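With 2 arrays per time, tests have few degrees of freedom. In 28 of the 46 genes the mean level over the 4 times was in the lowest 25% of features. At 0 h 8 of the 46 were at or below 5.53, the gauge of background, and their changes against 0 h rest on background. The set held 45 genes after quantile normalization, 46 with median centring, 39 with thresholds raised by 0.2 and 38 with the lower 9 h replica set against the higher replicas of the other times, and each of these sets lies within the 46. It held 71 genes, all 46 among them, with thresholds lowered by 0.2, and 18 without features of low mean level, since that filter leaves 18 of the 46. The 23 genes higher at 3 h than at 0 h were 14 without features of low mean level (of 18 left) and 11 at 4-fold, and between 20 and 28 under quantile normalization, median centring, the trended prior, the fit of 0 h and 3 h alone, the adjusted p alone and without the members at background at 0 h. The count of lower genes was 0 under each of these. Of the neighbours, 2 higher at 9 h than at 6 h became 1 after quantile normalization, 26 by adjusted p alone (10.9%, against 4.85% of features outside the set) and 0 at 1 place. The alternatives for neighbours and the one on background were chosen after seeing the data. Replicas could not be left out in turn, because the deposited means and SDs do not tell which value belongs to which array. No paired analysis was possible because the labels and columns give no replicate numbers.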
